A study of Caenorhabditis elegans with 10 samples.

Results

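The transcripts described here encode 37 subunits of the oxidative phosphorylation system of Caenorhabditis elegans, listed by gene identifier and by complex. They comprise 17 genes of complex I, 2 of complex II, 4 of complex III, 5 of complex IV and 9 of the ATP synthase, out of 44968 genes in the authors' expression table. Poly-adenylated RNA was sequenced from whole larvae of the wild-type strain N2 at the first larval stage, L1. Embryos hatched without food and entered L1 arrest, a reversible developmental stop, and the starved group was collected after about 12 h of arrest. The fed groups came from cultures given the bacterium E. coli HB101 and were collected 1 h, 3 h and 6 h later. There were 3 starved libraries, 2 at 1 h, 2 at 3 h and 3 at 6 h, which the design calls biological replicates. No genotype other than N2 was used, and every group had passed through the same arrest. The comparison asked how the transcripts of the respiratory chain changed as arrested larvae fed and resumed development.

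Oxidative phosphorylation takes place in the inner mitochondrial membrane. Complex I oxidises NADH and complex II oxidises succinate, and both pass electrons to ubiquinone. Complex III hands the electrons to cytochrome c, complex IV reduces oxygen, and the ATP synthase uses the proton gradient that complexes I, III and IV build. Most subunits are encoded in the nucleus, as all 37 genes here are, and a smaller set is encoded in mitochondrial DNA. In C. elegans, mutation or knockdown of several of these genes changes lifespan, and severe loss of mitochondrial function arrests larval development.

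Counts were available for 30 of the 37 genes, 13 of complex I, 1 of complex II, 4 of complex III, 5 of complex IV and 7 of the ATP synthase, and all 30 passed the filter on low counts. C16A3.5, mev-1 and atp-4 lay in units merged with a neighbouring gene, and nuo-3, nuo-5, ndab-2 and atp-3 had no counting unit of their own, so these 7 are described by the authors' FPKM alone. FPKM counts fragments relative to transcript length and library size, and it was given once per time point for the pooled libraries. The 10 libraries held between 19163997 and 38607167 counts in exonic bins, and a member reported here had between 564 and 155636 counts in a library. Counts were expressed relative to library size as CPM and scaled by TMM, a method that sets the bulk of genes to no change. A gene was called at an adjusted p under 0.05 in edgeR's quasi-likelihood test. Starved replicate 2 was the deepest library and the highest of the starved libraries for 15 of the 30 members. It exceeded the next starved library by over 1.5 times for nduf-7 and cyc-1. In bulk RNA from whole larvae, fewer cells of a type and less RNA per cell cannot be told apart.

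At 1 h the members that passed the test were lower than in starved larvae, and by 6 h most of those that passed were higher. At 1 h, 0 members were higher and 4 were lower (isp-1, cox-5A, cox-5B and cox-6A), where 20.4% of all 13226 units tested were higher and 18.7% were lower (39% in either direction). At an unadjusted p under 0.05 the counts at 1 h were 0 higher and 8 lower, and DESeq2 called 0 higher and 7 lower. At 3 h, 3 members were higher (ndus-8, nduv-2 and asb-1) and 2 were lower, ucr-2.1 among them, against backgrounds of 21.9% and 19.7% (41.6% in either direction). At 6 h, 11 were higher and 2 were lower, against 27% and 25% (52% in either direction). The joint test over the 3 times called 11 of the 30 members, where it called 55.8% of all units. In either direction the share of members called was below the background in this test and at each time. The median log2 fold change of the 30 members was -0.34 at 1 h, -0.03 at 3 h and 0.09 at 6 h, beside -0.0035, -0.020 and -0.039 over all units.

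The direction of the calls at 3 h and 6 h depended on the scaling. With library totals in place of TMM the members split into 1 higher and 7 lower at 3 h and into 5 higher and 10 lower at 6 h. With upper-quartile scaling the split was 1 higher and 2 lower at 3 h and 7 higher and 4 lower at 6 h. These scalings moved the median of all units as well, to 0.11, -0.26 and -0.37 at 1 h, 3 h and 6 h with totals and to -0.13, -0.16 and -0.24 with upper quartiles. Relative to the median of all units, complex I stood at 0.55 at 6 h under TMM, at 0.54 under totals and at 0.55 under upper quartiles. A change of scaling shifts all units by nearly the same amount, so these values had to be close and do not test the scaling. Changes are given under TMM and are relative to the bulk of genes.

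**Figure D1:**
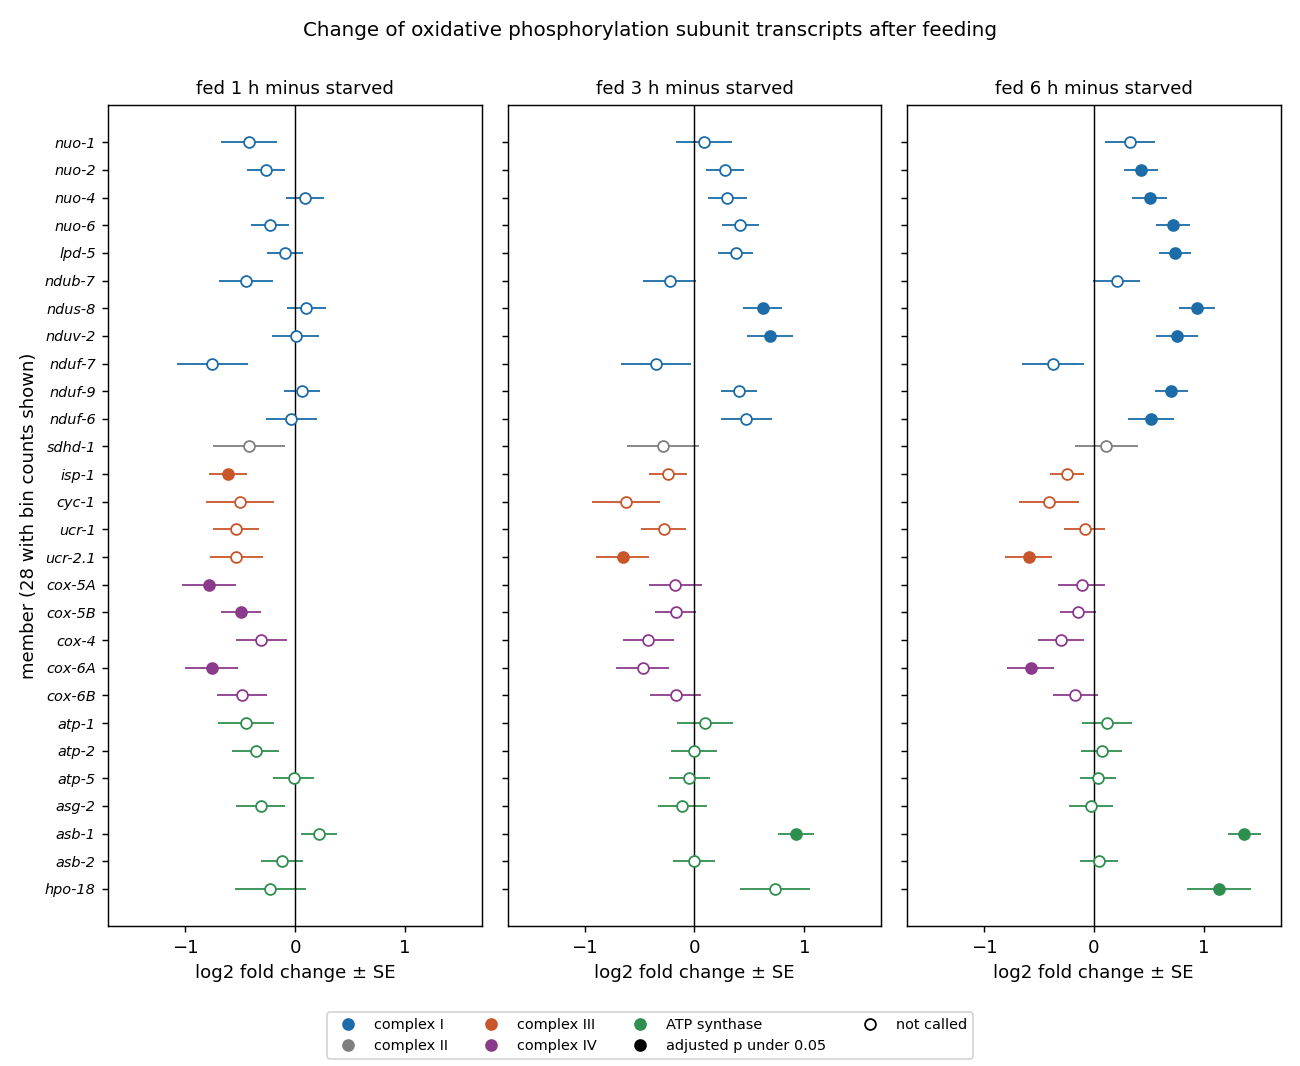
Log2 fold change against starved larvae with its standard error for 28 members with counts, by complex, at 1 h, 3 h and 6 h of feeding (7 fed and 3 starved libraries, edgeR). Filled points passed an adjusted p under 0.05. At 6 h the filled points on the right are 8 complex I genes and 2 ATP synthase genes, and those on the left are ucr-2.1 and cox-6A.

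Most members called higher at 6 h were complex I genes. Of its 13 genes with counts, 0 were called at 1 h, 2 were higher and 1 was lower at 3 h, and 9 were higher and 0 lower at 6 h, where 27% and 25% of all units were. With library totals 3 of the 9 calls at 6 h held (ndus-8, nuo-6 and lpd-5) and 2 other complex I genes were called lower. With upper quartiles 5 held and 1 gene was called lower, and with the single highest bin 5 held. Their median log2 fold change was -0.10 at 1 h (0.02 with library totals), 0.31 at 3 h and 0.51 at 6 h. The summed level of the 13 was 2343 ± 169 CPM in the starved group, 2090 ± 26 CPM after 1 h, 2824 ± 101 CPM after 3 h and 3249 ± 238 CPM after 6 h (SD, n = 3, 2, 2 and 3). Every 3 h and 6 h library was above every starved library in this TMM-scaled sum. With library totals the 3 h libraries lay inside the starved range of the sum. ndus-8 (T20H4.5) encodes the NDUFS8 subunit, which holds iron-sulfur clusters in the arm that leads electrons to ubiquinone. It had 146, 125 and 179 CPM in the starved libraries, 163 and 158 CPM after 1 h, 219 and 241 CPM after 3 h, and 314, 263 and 285 CPM after 6 h. All 6 h libraries lay above all starved ones, and ndus-8 rose with a log2 fold change of 0.94 ± 0.16 (SE, adjusted p = 0.000224). At 3 h the difference was a log2 fold change of 0.62 ± 0.18 (SE, adjusted p = 0.0113). That call was lost without 3 h replicate 2 (adjusted p = 0.103).

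The subunits of the NADH-oxidising module followed. nduv-2 (F53F4.10) encodes NDUFV2, an iron-sulfur subunit next to the flavin site. It had 212, 153 and 273 CPM in the starved libraries, 221 and 206 CPM after 1 h, 326 and 360.4 CPM after 3 h, and 375, 373 and 329 CPM after 6 h. Its fed libraries at 3 h and 6 h lay above the starved range, and it rose with a log2 fold change of 0.76 ± 0.19 (SE, adjusted p = 0.00420). The 3 h call (a log2 fold change of 0.69 ± 0.21 (SE, adjusted p = 0.0164)) was lost without either 3 h replicate (adjusted p = 0.0542 and 0.118). nuo-1 (C09H10.3) encodes NDUFV1, which binds NADH and flavin. The gene had 329, 481 and 283 CPM in the starved libraries, 274 and 270.0 CPM after 1 h, 366 and 409 CPM after 3 h, and 396, 612 and 365 CPM after 6 h. Starved replicate 2 and 6 h replicate 2 were the high ones. The groups overlapped at 3 h and 6 h, and the 6 h difference was a log2 fold change of 0.33 ± 0.23 (SE, adjusted p = 0.237). lpd-5 (ZK973.10) encodes NDUFS4. It had 67.8, 73.4 and 73.6 CPM in the starved libraries, 68.3 and 65.7 CPM after 1 h, 94.7 and 91.0 CPM after 3 h, and 124, 136 and 99.1 CPM after 6 h. It rose with a log2 fold change of 0.74 ± 0.15 (SE, adjusted p = 0.000690), and its libraries at 3 h and 6 h did not overlap the starved ones. nduf-6 (F22D6.4) encodes NDUFS6, a zinc-binding subunit. The gene had 90.4, 70.5 and 142 CPM in the starved libraries, 103 and 94.3 CPM after 1 h, 141 and 139.7 CPM after 3 h, and 156, 128 and 152 CPM after 6 h. Starved replicate 3 exceeded 6 h replicate 2, and the 6 h difference of a log2 fold change of 0.52 ± 0.21 (SE, adjusted p = 0.0487) passed the test by little. Leaving out starved replicate 1 or 2, 6 h replicate 1 or 3, or any library at 1 h or 3 h ended the call (adjusted p between 0.0640 and 0.209).

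In the module that reduces ubiquinone, nuo-2 (T10E9.7) encodes NDUFS3. This gene had 169, 139.9 and 199.8 CPM in the starved libraries, 144 and 137 CPM after 1 h, 202 and 208 CPM after 3 h, and 226, 217 and 240.0 CPM after 6 h. Its 6 h libraries lay above the starved ones and it rose with a log2 fold change of 0.43 ± 0.15 (SE, adjusted p = 0.0319). The test was no longer passed without starved replicate 1 or 2, 6 h replicate 1 or 3, or any library at 1 h or 3 h (adjusted p between 0.0510 and 0.133). nduf-7 (W10D5.2) encodes NDUFS7. The gene had 217, 485 and 183 CPM in the starved libraries, 176 and 174 CPM after 1 h, 219.8 and 242 CPM after 3 h, and 191, 262 and 232 CPM after 6 h. Starved replicate 2 stood at 2.23 times the next starved library, and the 6 h difference of a log2 fold change of -0.37 ± 0.28 (SE, adjusted p = 0.288) was not called. In that library 87.1% of the nduf-7 counts fell in bins 2 and 3 of its unit, against 60.2% to 73.1% in the other 9 libraries.

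Apart from lpd-5 and nduf-6, the accessory subunits with counts were nuo-4 (K04G7.4), nuo-6 (W01A8.4), ndub-7 (D2030.4) and nduf-9 (Y53G8AL.2). nuo-6 encodes NDUFB4, and a point mutation in it extends lifespan in this species. It had 119.9, 158 and 136 CPM in the starved libraries, 125 and 110.0 CPM after 1 h, 177 and 191 CPM after 3 h, and 239.6, 208 and 235 CPM after 6 h. The 6 h libraries all exceeded the starved ones, and nuo-6 rose with a log2 fold change of 0.72 ± 0.15 (SE, adjusted p = 0.00112). It was 1 of 2 members that edgeR called higher at 3 h than at 1 h, a call lost when any 1 h or 3 h library was left out. nduf-9 encodes NDUFA9. It had 154, 153 and 139 CPM in the starved libraries, 160.4 and 149.9 CPM after 1 h, 199.9 and 194 CPM after 3 h, and 219, 283 and 225 CPM after 6 h. Its 3 h and 6 h libraries lay above the starved range, and it rose with a log2 fold change of 0.71 ± 0.15 (SE, adjusted p = 0.00115). nuo-4 encodes NDUFA10. The gene had 422, 337 and 323 CPM in the starved libraries, 381 and 386 CPM after 1 h, 446 and 441 CPM after 3 h, and 482, 549.5 and 509 CPM after 6 h. The groups at 6 h and starved did not overlap, and it rose with a log2 fold change of 0.51 ± 0.16 (SE, adjusted p = 0.0143). The call was absent with library totals (a log2 fold change of 0.17, adjusted p = 0.414), upper quartiles (0.107), the single highest bin (0.0664) and the libraries of barcodes 1 to 8 (0.0593). ndub-7, the NDUFB7 gene, had 86.4, 61.0 and 101 CPM in the starved libraries, 60.8 and 60.5 CPM after 1 h, 70.7 and 70.8 CPM after 3 h, and 121, 101 and 64.9 CPM after 6 h. The 6 h libraries spread over the starved range, with replicate 3 the lowest of them, and the difference was a log2 fold change of 0.21 ± 0.22 (SE, adjusted p = 0.442). Of the complex I members described by FPKM alone, C16A3.5 was estimated at 744, 841, 805 and 949 FPKM in starved larvae and at 1 h, 3 h and 6 h. The estimates for nuo-3, nuo-5 and ndab-2 carried the status FAIL in the authors' table and are not compared.

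**Figure D2:**
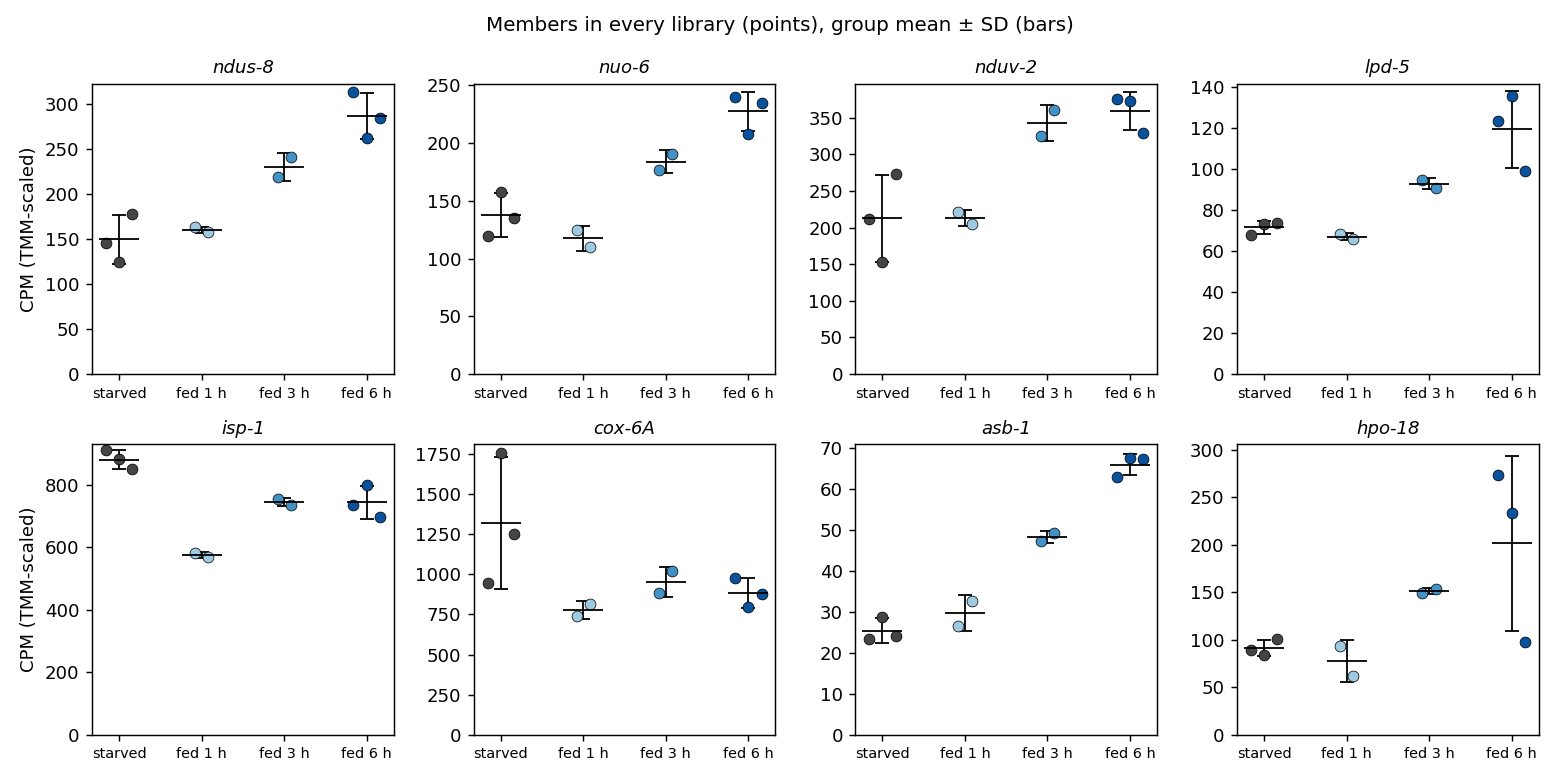
TMM-scaled CPM of 8 members in each of the 10 libraries (points), with group means and SD (bars), for starved larvae and larvae fed for 1 h, 3 h and 6 h. ndus-8, nuo-6 and asb-1 lie wholly above the starved range at 6 h, while hpo-18 at 6 h has 2 high libraries and 1 at 98.0 CPM inside the starved range.

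Complex II was represented by its membrane subunits. sdhd-1 (F33A8.5) encodes the small cytochrome b subunit SDHD. The gene had 137, 93.4 and 207 CPM in the starved libraries, 118 and 98.9 CPM after 1 h, 102 and 136 CPM after 3 h, and 132, 112 and 229 CPM after 6 h. The fed and starved libraries overlapped at every time, with replicate 3 the highest in both 6 h and starved larvae. The differences at 1 h (a log2 fold change of -0.42 ± 0.33 (SE, adjusted p = 0.335)), 3 h (a log2 fold change of -0.29 ± 0.33 (SE, adjusted p = 0.520)) and 6 h (a log2 fold change of 0.12 ± 0.29 (SE, adjusted p = 0.758)) were not called. mev-1, which encodes SDHC and whose loss makes worms sensitive to oxygen, was estimated at 360 FPKM in starved larvae and at 295, 289 and 327 FPKM at 1 h, 3 h and 6 h. Its log2 FPKM ratios to starved larvae were -0.29, -0.32 and -0.14, beside medians of -0.07, -0.43 and -0.48 over 14858 genes.

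Complex III members were lower than in starved larvae at every time by fitted value, but few passed the test. Of the 4, 1 was lower at 1 h, 1 at 3 h and 1 at 6 h, and 0 were higher. Of all units, 18.7%, 19.7% and 25% were lower at these times, so the lower counts were near the background. The median log2 fold change of the 4 was -0.54, -0.45 and -0.33. isp-1 (F42G8.12) encodes the Rieske iron-sulfur protein. Its transcript had 912, 882 and 849.8 CPM in the starved libraries, 583 and 570.2 CPM after 1 h, 754 and 737 CPM after 3 h, and 736, 800.5 and 697 CPM after 6 h. Each of the 7 fed libraries was below each starved library, and isp-1 fell at 1 h with a log2 fold change of -0.61 ± 0.17 (SE, adjusted p = 0.0114). Without 1 h replicate 1 or replicate 2 the adjusted p was 0.0677 and 0.0921, and with the single highest bin it was 0.110. At 3 h and 6 h its differences were a log2 fold change of -0.24 ± 0.17 (SE, adjusted p = 0.283) and a log2 fold change of -0.24 ± 0.15 (SE, adjusted p = 0.193). ucr-2.1 (VW06B3R.1), a core protein of the complex, had 839.5, 1199 and 851 CPM in the starved libraries, 561 and 768 CPM after 1 h, 528 and 697 CPM after 3 h, and 545.5, 589 and 783 CPM after 6 h. Every fed library was below every starved one, and it fell with a log2 fold change of -0.65 ± 0.24 (SE, adjusted p = 0.0436) at 3 h and a log2 fold change of -0.59 ± 0.21 (SE, adjusted p = 0.0318) at 6 h. With the single highest bin the 3 h difference was -1.27 and was not called (adjusted p = 0.141). Without starved replicate 2 neither call held (adjusted p = 0.127 and 0.119). The 3 h call was also lost without either 3 h library or 6 h replicate 2 (0.315, 0.0637 and 0.0514), and the 6 h call without 6 h replicate 1 or 2 (0.113 and 0.0961). ucr-1 (F56D2.1), the other core protein listed, had 915, 1143 and 792 CPM in the starved libraries, 642 and 668 CPM after 1 h, 717 and 846 CPM after 3 h, and 825, 1050.5 and 815 CPM after 6 h. Its 1 h libraries lay below the starved ones, the later groups overlapped them, and the 6 h difference was a log2 fold change of -0.08 ± 0.19 (SE, adjusted p = 0.728). cyc-1 (C54G4.8), cytochrome c1, had 628, 1346 and 588 CPM in the starved libraries, 564 and 642 CPM after 1 h, 537 and 573 CPM after 3 h, and 509, 714 and 709.7 CPM after 6 h. The fed libraries of cyc-1 overlapped the lower starved ones at 1 h and 6 h and lay below them at 3 h. Starved replicate 2 stood far above all others, and the 6 h difference was a log2 fold change of -0.41 ± 0.27 (SE, adjusted p = 0.224).

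Under TMM, complex IV genes, like those of every complex here, had their lowest summed level at 1 h. That order depended on the scaling. In the authors' FPKM, scaled by library totals, the complex IV medians were 1544, 1455 and 1469 at 1 h, 3 h and 6 h. Those of complex III were 623, 519 and 537. Of the 5 genes, 3 were lower at 1 h, 0 were called at 3 h and 1 was lower at 6 h. Of all units, 18.7% were lower at 1 h, 41.6% were called at 3 h and 25% were lower at 6 h. The 5 genes had medians of -0.49, -0.17 and -0.17. The summed level was 5035 ± 801 CPM in the starved group, 3383 ± 108 CPM after 1 h, 4099 ± 514 CPM after 3 h and 4166 ± 51.1 CPM after 6 h (SD, n = 3, 2, 2 and 3). Both 1 h libraries were below every starved library in this sum. cox-5A (Y37D8A.14) had 1009.8, 823 and 1501 CPM in the starved libraries, 715 and 576 CPM after 1 h, 929 and 1041 CPM after 3 h, and 941, 1073 and 1078 CPM after 6 h. It fell at 1 h with a log2 fold change of -0.78 ± 0.24 (SE, adjusted p = 0.0191). The test was no longer passed without starved replicate 3 (adjusted p = 0.0672) or 1 h replicate 2 (0.183). Its 6 h difference was a log2 fold change of -0.11 ± 0.21 (SE, adjusted p = 0.690). cox-5B (F26E4.9), known in lifespan work as cco-1, had 706, 825 and 869 CPM in the starved libraries, 586 and 551 CPM after 1 h, 670.1 and 749.5 CPM after 3 h, and 758, 770.2 and 644 CPM after 6 h. It fell at 1 h with a log2 fold change of -0.49 ± 0.18 (SE, adjusted p = 0.0470), and the call was kept only when starved replicate 1 or 6 h replicate 3 was the library left out. Without starved replicate 2 or 3, 6 h replicate 1 or 2, or any library at 1 h or 3 h the adjusted p lay between 0.0510 and 0.234. cox-6A (F54D8.2) had 944, 1758 and 1251 CPM in the starved libraries, 738 and 817 CPM after 1 h, 885 and 1018 CPM after 3 h, and 979, 795 and 879 CPM after 6 h. It fell at 1 h with a log2 fold change of -0.76 ± 0.24 (SE, adjusted p = 0.0223) and at 6 h with a log2 fold change of -0.57 ± 0.21 (SE, adjusted p = 0.0352). Both calls were lost without starved replicate 2 (adjusted p = 0.0747 and 0.174), the 1 h call also without 1 h replicate 1 or 2 (0.141 and 0.0901) and the 6 h call without 6 h replicate 2 or 3 (0.111 and 0.0735). cox-4 (W09C5.8) had 865, 1178 and 1169 CPM in the starved libraries, 749 and 981 CPM after 1 h, 673 and 927 CPM after 3 h, and 706, 899 and 1008 CPM after 6 h. Its groups overlapped the starved range at every time, and the 6 h difference was a log2 fold change of -0.30 ± 0.21 (SE, adjusted p = 0.244). cox-6B (Y71H2AM.5) had 592, 818 and 798 CPM in the starved libraries, 518 and 535 CPM after 1 h, 579 and 727 CPM after 3 h, and 841, 595 and 531 CPM after 6 h. Both 1 h libraries lay below the starved ones, the later groups overlapped them, and the 6 h difference was a log2 fold change of -0.17 ± 0.20 (SE, adjusted p = 0.515).

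In the ATP synthase the 2 largest rises at 6 h among the 30 members with counts stood beside subunits that did not pass the test. Of the 7 genes with counts, 0 were called at 1 h, 1 was higher at 3 h and 2 were higher at 6 h. Of all units, 39% were called at 1 h, and 21.9% and 27% were higher at 3 h and 6 h. The count at 6 h was thus near the background. The 7 genes had a median log2 fold change of -0.23, -0.0047 and 0.07. At 6 h that median was -0.28 with library totals and -0.13 with upper-quartile scaling. asb-1 (F35G12.10) encodes a form of the peripheral stalk subunit b that is known from the germline. It had 23.5, 28.8 and 24.1 CPM in the starved libraries, 26.5 and 32.7 CPM after 1 h, 47.3 and 49.3 CPM after 3 h, and 62.9, 67.5 and 67.4 CPM after 6 h. Every 3 h and 6 h library was above the starved range, and asb-1 rose with a log2 fold change of 0.92 ± 0.16 (SE, adjusted p = 0.000344) at 3 h and a log2 fold change of 1.37 ± 0.15 (SE, adjusted p = 3.09e-06) at 6 h. Both calls held without any single library, and the 3 h call was lost with the single highest bin (adjusted p = 0.102). hpo-18 (F32D1.2), the epsilon subunit of the central stalk, had 89.0, 84.5 and 101 CPM in the starved libraries, 93.9 and 62.5 CPM after 1 h, 149.6 and 154 CPM after 3 h, and 274, 234 and 98.0 CPM after 6 h. It rose at 6 h with a log2 fold change of 1.14 ± 0.29 (SE, adjusted p = 0.00475). The call held without any single library, although 6 h replicate 3 was inside the starved range. The 3 h libraries of hpo-18 both exceeded the starved ones, with a difference of a log2 fold change of 0.73 ± 0.32 (SE, adjusted p = 0.0811).

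The catalytic subunits gave smaller differences. atp-1 (H28O16.1), the alpha subunit, had 2739, 3772 and 2619.9 CPM in the starved libraries, 2145 and 2320.1 CPM after 1 h, 3027 and 3471 CPM after 3 h, and 2409, 4307 and 3202 CPM after 6 h. The 6 h libraries spanned more than the whole starved range, and the difference at 6 h was a log2 fold change of 0.12 ± 0.23 (SE, adjusted p = 0.682). atp-2 (C34E10.6), the beta subunit that carries the catalytic sites, had 2272, 2375 and 1747 CPM in the starved libraries, 1622 and 1700.0 CPM after 1 h, 2091 and 2153 CPM after 3 h, and 1879, 2649.6 and 2191 CPM after 6 h. Both 1 h libraries were below the starved ones, and the differences were a log2 fold change of -0.36 ± 0.21 (SE, adjusted p = 0.203) at 1 h and a log2 fold change of 0.07 ± 0.19 (SE, adjusted p = 0.769) at 6 h. asb-2 (F02E8.1), the other form of subunit b, had 994, 1122 and 1078 CPM in the starved libraries, 892 and 1063 CPM after 1 h, 980.4 and 1142 CPM after 3 h, and 964, 1106 and 1236 CPM after 6 h. Its groups overlapped at every time, and the 6 h difference was a log2 fold change of 0.05 ± 0.17 (SE, adjusted p = 0.824). atp-5 (C06H2.1), subunit d, had 1333, 1090.3 and 1202 CPM in the starved libraries, 1156 and 1241 CPM after 1 h, 1159 and 1180.3 CPM after 3 h, and 1102, 1270.4 and 1352 CPM after 6 h, with a 6 h difference of a log2 fold change of 0.04 ± 0.17 (SE, adjusted p = 0.856). asg-2 (C53B7.4), subunit g, had 615, 391 and 709.7 CPM in the starved libraries, 471 and 449 CPM after 1 h, 515 and 543 CPM after 3 h, and 571, 537 and 577 CPM after 6 h, with a 6 h difference of a log2 fold change of -0.03 ± 0.20 (SE, adjusted p = 0.921), the lowest in the complex. The groups of atp-5 and asg-2 overlapped at every time. atp-4, coupling factor 6 in a merged unit, was estimated at 1716 FPKM in starved larvae and at 975, 967 and 942 FPKM at 1 h, 3 h and 6 h. The estimate for atp-3, the OSCP subunit, carried the status FAIL.

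The forms of subunit b could be compared within each library, and the ratio moved toward asb-1 after feeding. asb-1 lies on chromosome III (4594507 to 4595910, minus strand) and asb-2 on chromosome X (4469718 to 4471455, plus strand) of the deposited annotation, which uses WS210 gene models. The log2 ratio of asb-2 over asb-1 CPM averaged 5.39 ± 0.10 in the starved group, 5.04 ± 0.03 after 1 h, 4.45 ± 0.11 after 3 h and 4.05 ± 0.13 after 6 h (SD, n = 3, 2, 2 and 3), a linear ratio of 41.8, 32.9, 21.9 and 16.6. All 7 fed libraries were below all 3 starved ones, by -0.94 on average. An exact two-sided permutation test gave p = 0.0167, and an adjusted p of 0.0167 over the 2 paralog pairs computed. That p is the smallest value that 7 against 3 libraries allow, and without a starved library the smallest is 0.0556. The cytochrome c genes cyc-2.1 and cyc-2.2 were not compared, because cyc-2.1 lay in a merged unit and cyc-2.2 had no unit.

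**Figure D3:**
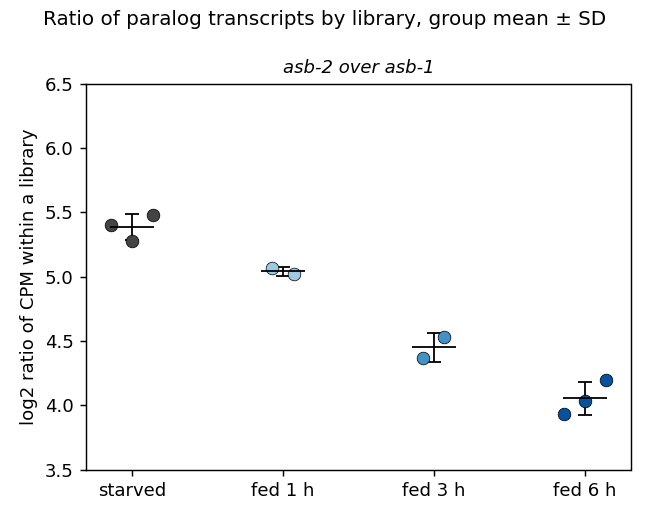
Log2 ratio of CPM within each library (points) for asb-2 over asb-1, with group means and SD (bars), in starved larvae and at 1 h, 3 h and 6 h. The asb ratio lies lower at each later time, and the axis starts at 3.5, not at 0.

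Time points were also set against each other. At 3 h against 1 h, 23 members had both 3 h libraries above both 1 h libraries and 1 had both below, where 32.3% and 33% of all units did so. The edgeR test called 2 members higher, nuo-6 with a log2 fold change of 0.65 ± 0.19 (SE, adjusted p = 0.0424) and asb-1 with a log2 fold change of 0.71 ± 0.18 (SE, adjusted p = 0.0229), and 0 lower, against 4.79% and 4.6% of all units (9.38% in either direction). DESeq2 called 5 higher. Both edgeR calls were lost when any library of 1 h or 3 h was left out, with an adjusted p between 0.135 and 0.328 for nuo-6 and between 0.0739 and 0.224 for asb-1. The median difference of the 30 members was 0.33 beside -0.01 over all units. Against starved larvae, 13 members lay wholly lower at 1 h and 0 wholly higher, where 29.7% and 31.9% of all units did so. At 3 h, 10 lay wholly higher and 4 wholly lower, where 31.8% and 30.8% did, and at 6 h the counts were 8 and 2, where 28.2% and 27% did. From 3 h to 6 h, 0 members were called by edgeR (3 higher and 0 lower at an unadjusted p under 0.05) or by DESeq2. The background was 2.1% of units higher and 0.665% lower (2.77% in either direction). The comparisons at 1 h, 3 h and 6 h share the starved libraries.

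On the FPKM scale, which allows levels to be compared between genes, the complexes had the same order of medians in starved and fed larvae. Estimates with the status FAIL are left out of these ranges and medians. Complex IV members ranged from 1016 to 3303 FPKM in starved larvae, with cox-6A the highest member. ATP synthase members were between 1310 and 2295 FPKM apart from hpo-18 at 555 and asb-1 at 32.7. Complex III lay between 732 and 1070, complex II at 304 and 360, and C16A3.5, at 744, was the highest of complex I. At 6 h the medians were 1469 FPKM for complex IV, 1144 for the ATP synthase, 537 for complex III, 306 for complex II and 257 for complex I, against 2002, 1707, 801, 332 and 222 in starved larvae. These values are scaled by library totals, and the median log2 FPKM ratio to starved larvae over 14858 genes was -0.07 at 1 h, -0.43 at 3 h and -0.48 at 6 h. The authors' intervals were wide, 1098 to 2504 FPKM at 6 h and 1346 to 5260 in starved larvae for cox-6A.

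**Figure D4:**
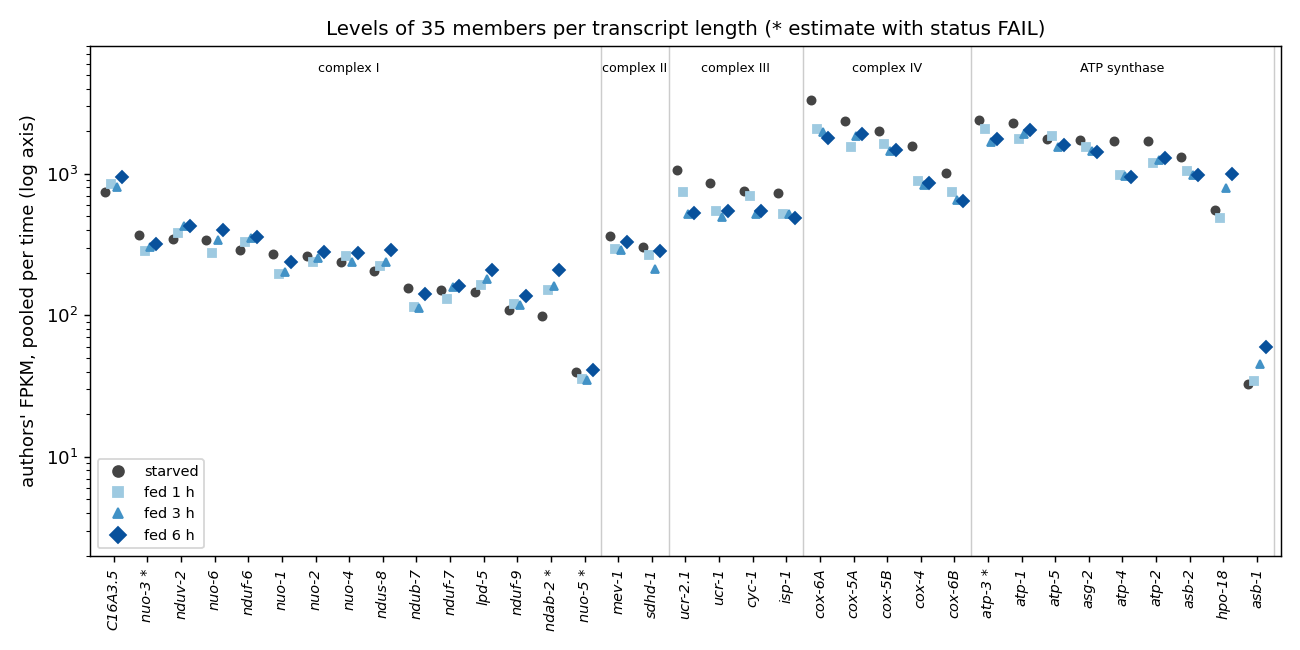
The authors' FPKM of 35 members on a log axis, by complex and in order of the starved level, for starved larvae and larvae fed for 1 h, 3 h and 6 h (1 pooled value per time). Complex IV and most ATP synthase genes stand highest, and asb-1 stands well below the other members of its complex.

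Other subunits of the complexes, kept as lists of their own, had their lowest median at 1 h under TMM. Of 28 with counts, 0 were higher and 12 were lower at 1 h, 3 were higher and 3 lower at 3 h, and 5 were higher and 2 lower at 6 h. The background of all units was 20.4% higher and 18.7% lower for 1 h, 21.9% higher and 19.7% lower for 3 h, and 27% higher and 25% lower for 6 h. The median log2 fold change of the 28 was -0.42, -0.07 and 0.13. In complex I, 3 of 14 were higher and 1 was lower at 6 h. The largest rise there was that of ndab-1, an acyl carrier protein, with a log2 fold change of 0.99 ± 0.14 (SE, adjusted p = 4.03e-05), and the fall was that of ndub-10, with a log2 fold change of -0.41 ± 0.16 (SE, adjusted p = 0.0494). In complex III, ucr-2.2 rose with a log2 fold change of 1.06 ± 0.15 (SE, adjusted p = 3.70e-05) and ucr-2.3 fell with a log2 fold change of -1.03 ± 0.29 (SE, adjusted p = 0.00732). Of the 3 catalytic succinate dehydrogenase genes, sdha-2 rose at 6 h with a log2 fold change of 0.77 ± 0.27 (SE, adjusted p = 0.0261), at levels between 5.72 and 13.1 CPM over all libraries. Both other complex IV genes and all 4 other ATP synthase genes were not called at 6 h, while 1 and 3 of them were lower at 1 h.

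The listed assembly factors, which help to build the complexes, were mostly higher after feeding. They were sco-1, sft-1, cox-10, cox-11, cox-15 and bcs-1, and the list does not cover every complex. All 6 assembly factors with counts were higher at 3 h and at 6 h, and 5 of 6 at 1 h, beside 21.9%, 27% and 20.4% of all units higher at 3 h, 6 h and 1 h. They had a median log2 fold change of 1.2 at 1 h, 1.53 at 3 h and 1.17 at 6 h. cox-11, a copper-insertion factor of complex IV, rose at 6 h with a log2 fold change of 1.90 ± 0.18 (SE, adjusted p = 1.00e-06), the largest change of the list. It had 9.70, 8.75 and 10.5 CPM in the starved libraries, 28.3 and 26.2 CPM after 1 h, 28.1 and 35.05 CPM after 3 h, and 43.1, 28.3 and 36.96 CPM after 6 h, with no overlap between any fed group and the starved one. Of the 7 ubiquinone synthesis genes with counts, 3 were higher at 1 h and at 3 h, 4 were higher at 6 h, and 0 were lower at any time. coq-5, a methyltransferase of that pathway, rose at 6 h with a log2 fold change of 1.77 ± 0.13 (SE, adjusted p = 9.28e-08). Among 4 genes for nucleotide carriers and ATPase inhibitors, ucp-4, a member of the uncoupling protein family, rose with a log2 fold change of 0.97 ± 0.19 (SE, adjusted p = 0.000551) at 6 h and ant-1.1, the main adenine nucleotide carrier, fell with a log2 fold change of -1.13 ± 0.19 (SE, adjusted p = 0.000224). ant-1.1 had 17059, 14620.4 and 20340.0 CPM in the starved libraries, 10142 and 9995 CPM after 1 h, 8018 and 8680.0 CPM after 3 h, and 7143, 8177 and 8439 CPM after 6 h, and all fed libraries were below all starved ones.

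**Figure D5:**
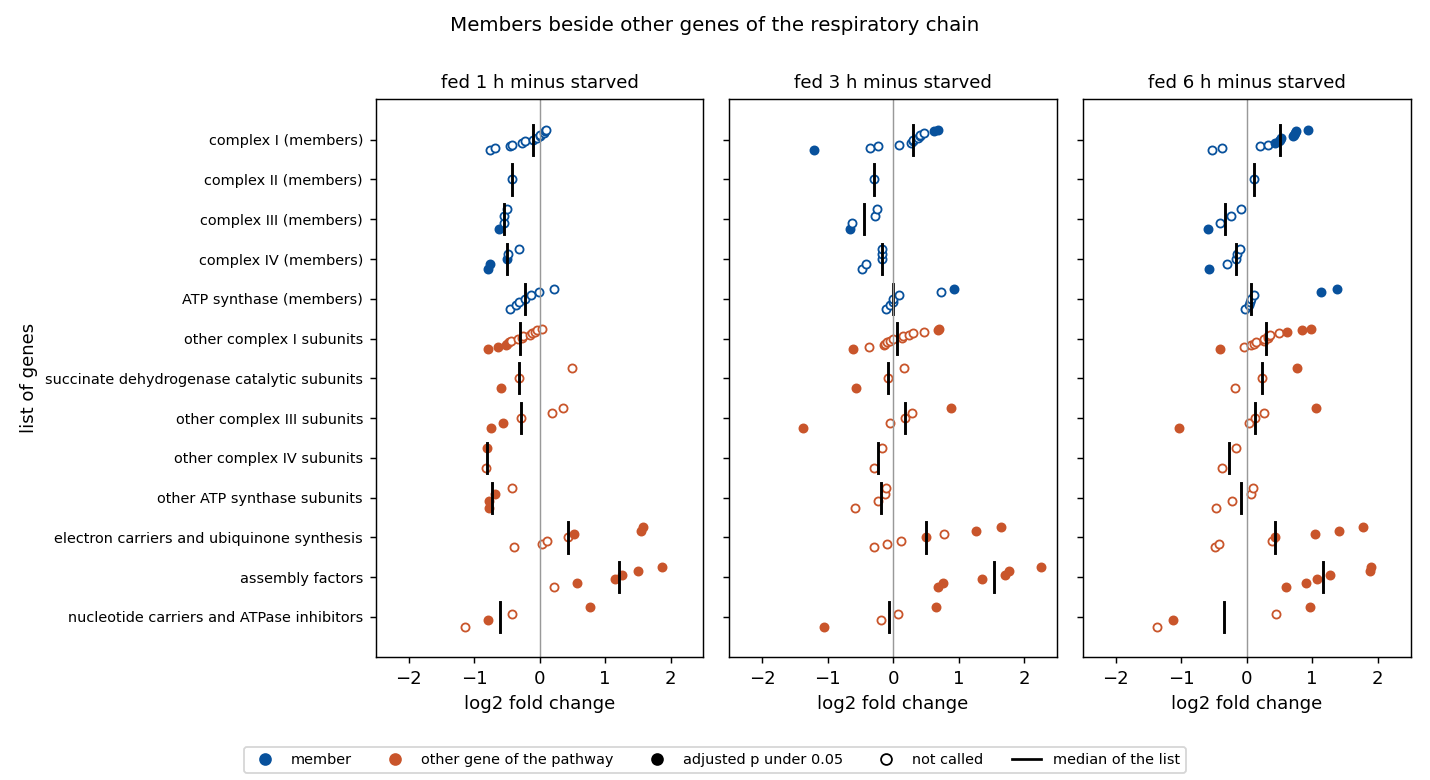
Log2 fold change against starved larvae at 1 h, 3 h and 6 h for the members by complex and for the other genes of the pathway by list, with filled points for an adjusted p under 0.05 and a bar at the median of each list. The 6 assembly factors lie to the right of 0 at each time, whereas the medians of complexes III and IV lie to the left.

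Markers of tissues moved over the same times. unc-54, dpy-7, lin-26, vit-2 and vit-6 had no unit of their own and are left out. The summed level of 4 body wall muscle markers was 4719 ± 882 CPM in the starved group, 3077 ± 364 CPM after 1 h, 2504 ± 456 CPM after 3 h and 2893 ± 608 CPM after 6 h. In the same order, that of 5 pharynx markers was 3081 ± 953, 2152 ± 400, 1693 ± 135 and 2023 ± 487 CPM (SD, n = 3, 2, 2 and 3). Of the muscle markers 2, 4 and 4 of 4 were lower at 1 h, 3 h and 6 h, and of the pharynx markers 2, 3 and 3 of 5. For these and the marker counts that follow, 18.7%, 19.7% and 25% of all units were lower at those times. The shares higher were 20.4%, 21.9% and 27%. Under TMM the median log2 fold change of each complex was lowest at 1 h, and the muscle and pharynx sums were lowest at 3 h. By fitted value cyc-1, ucr-2.1 and cox-4 were lowest at 3 h, and the other members of complexes III and IV at 1 h. The part of muscle and pharynx in the results for complexes III and IV was not tested. The 5 intestine markers summed to 1699 ± 173, 1487 ± 102, 2084 ± 60.9 and 2357 ± 401 CPM, with 2 higher and 2 lower at each time. The 5 germ cell markers, listed for asb-1, summed to 57.5 ± 9.5, 73.7 ± 8.63, 39.1 ± 3.01 and 46.3 ± 31.7 CPM. Of these 0 were called higher at any time and 0, 1 and 2 were called lower at 1 h, 3 h and 6 h. Their sum ran from 18.1 to 80.5 CPM over the 6 h libraries. The part of germ cells in the rise of asb-1 at 3 h and 6 h was not tested. The 3 yolk genes measured had a sum of 0.937 to 2.14 CPM in fed larvae and 0.881 to 2.23 CPM in starved larvae. Neurons had 0, 0 and 1 of 5 markers lower and 0 higher at 1 h, 3 h and 6 h, and hypodermis had 2, 1 and 1 of 3 higher and 0 lower.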

How the data were processed

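Per the submitters' processing notes, reads were mapped with TopHat and Bowtie 0.12.7. Per the labels, 22 bases of spliced leader were removed from reads that carried it. The authors deposited counts per exonic bin for each library, made per the file headers with the DEXSeq scripts on WS210 gene models; the strand setting of that step is not stated there. They also deposited FPKM from cuffdiff (Cufflinks 1.0.2, per the file headers), pooled over the libraries of a time. Bin counts were summed per gene unit, so a read over several bins counts more than once, and 257 units that merge genes were not read for members. Bins of 5 members with counts (nuo-6, nduf-6, sdhd-1 and cyc-1 among them) overlap a gene on the other strand.

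Differences were tested with edgeR 4.0.16 (R 4.3.3; TMM, filterByExpr, robust quasi-likelihood fit of 4 groups over all 10 libraries, Benjamini-Hochberg adjustment over 13226 units, threshold 0.05; 148 units were filtered out). Paralog log2 ratios used a prior count of 2 and exact permutation tests (scipy 1.17.1). Alternatives were DESeq2 1.42.0, other scalings, no filter, the single highest bin, 8 libraries of barcodes 1 to 8, a replicate block and each library left out. On simulated data for 6 h against starved over 13171 units, 32 and 36 of 50 units changed by log2 1 and -1 were called, 6 and 5 of 50 at 0.5 and -0.5, with 5 false calls. Only those units were changed, with a biological coefficient of variation of 0.2, whereas 52% of all units were called at 6 h in the data. The adjusted threshold was thus stricter in the simulation, and its shares do not give how often a change was missed here. A change that was not called is not shown to be absent. The fed larvae came from cultures first sampled as starved, per the labels' protocols, but which libraries share one is not named, so p-values reflect only the spread among these samples, part of which may be technical. Replicate numbers here follow the order of barcodes within a group, and the sample titles give only time and barcode. Same-numbered libraries deviated together in part (r between 0.0766 and 0.33 over 13 pairs). Differently numbered ones had r between -0.33 and 0.128 over 24 pairs, and deviations within a group are not independent. Whether a number marks a shared culture stays unknown, and the main test used no pairing. Counts with the replicate number as a block are given below.

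Values for each library are given for 28 of the 30 members with counts. The other 2, both of complex I, are not reported here, although the counts, sums and medians over members include them. For the other genes of the pathway the text gives counts per list and the largest rise and fall at 6 h. The members and lists were chosen with earlier results of these data known.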

Additional observations from a re-analysis of the deposited data

Results flagged for a closer look

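The change after feeding differed between 1 h and 3 h for nuo-6 and asb-1, by direct test of 3 h against 1 h. For nuo-6 the difference was a log2 fold change of 0.65 (SE 0.19, edgeR adjusted p = 0.0424), and for asb-1 it was 0.71 (SE 0.18, adjusted p = 0.0229), with both 3 h libraries above both 1 h libraries in each case. With library totals in place of TMM neither was called (adjusted p = 0.318 and 0.233). Both calls were also lost when any 1 h or 3 h library was left out, with an edgeR adjusted p between 0.135 and 0.328 for nuo-6 and between 0.0739 and 0.224 for asb-1.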

How the results depend on the processing

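The alternatives for the joint test were chosen after seeing the data. At 1 h, 4 members were called; 8 with upper-quartile scaling, 1 with the single highest bin, 7 with DESeq2, and 0 to 5 with 1 library left out (0 without 1 h replicate 2). At 3 h, 5 were called; 3 with upper quartiles, 8 with totals, 1 with the single highest bin, 9 with barcodes 1 to 8, and 2 to 7 with 1 library left out. At 6 h, 13 were called, with 9 to 15 under every alternative; without starved replicate 2 or 6 h replicate 2 none of the members was lower (edgeR). For 3 h against 1 h, 2 were called; 0 with totals or the single highest bin, 5 with DESeq2 or barcodes 1 to 8, and 0 to 3 with 1 library left out. For 6 h against 3 h the count was 0 under every alternative. The joint test called 8 to 14 without the block, 8 to 12 with 1 library left out. A group left with 1 library was taken to vary as the rest did. With the replicate number as a block, the counts were 7 at 1 h, 5 for 3 h against 1 h and 17 in the joint test, and the other counts stayed within 1.5 times.

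The asb-2 over asb-1 difference was -0.85 (exact permutation p = 0.0714) with barcodes 1 to 8 and -1.33 (p = 0.10) for 6 h alone, and -1.04 to -0.85 with 1 library left out. These p-values are the smallest the exact tests allow. No called value changed sign. Among the members reported, asb-1 had the lowest count, 564 in a library.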

Other observations

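The 12 protein-coding genes of mitochondrial DNA that the FPKM table holds encode subunits of the same complexes. They have no bin counts, so only the authors' pooled FPKM can be given, with no test, and the list was chosen after the data were seen. ND5 is listed at 0 at all times. Of the other 11, 8 were higher and 3 lower at 1 h than in starved larvae, 0 were higher and 11 lower at 3 h, and 3 were higher and 8 lower at 6 h, on a scale whose median over all genes was -0.07, -0.43 and -0.48 in log2. COX1 had 782, 761, 531 and 553 FPKM in starved larvae and at 1 h, 3 h and 6 h. ATP6 had 4517, 6102, 3899 and 4894 FPKM at the same times. Among complex I subunits, ND1 had 272, 185, 150 and 151 FPKM, and ND2 had 654, 680, 529 and 661 FPKM. The RNA was selected for poly(A), and what that does to mitochondrial transcripts was not tested.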
